A study of Mus musculus with 78 samples.

Results

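The transcripts of single mouse blastomeres were read here through 25087 repeat copies whose RepeatMasker names begin with RLTR, ETn, MMETn or RMER, out of 461206 repeat copies listed in the tables of the 4-cell and 8-cell stages. The members were chosen by name alone, from the part of each row name that stands before the copy number. The 4-cell table listed 14336 of them among 278683 repeat copies, and the 8-cell table listed 17723 among 327627. They fell into 245 subfamilies, of which 242 were listed at the 4-cell stage and 243 at the 8-cell stage. The subfamilies listed at a single stage were RLTR46 and RMER3D1 at the 4-cell stage and RLTR3_Mm, RLTR43B and RLTR46A2 at the 8-cell stage. A copy is listed where at least 1 blastomere of that stage has a value above 0.

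The libraries came from Rainbow-seq, which pairs single-cell RNA sequencing with a fluorescent lineage marker that is switched on at the 2-cell stage. All embryos were hybrids of a Jackson stock with the allele Gt(ROSA)26Sortm1(CAG-Brainbow2.1)Cle and a stock with the transgene Tg(CAG-cre/Esr1*)5Amc. They carried 1 copy of the Brainbow cassette and 1 copy of a tamoxifen-inducible Cre, both under the ubiquitous CAG promoter. Both stages shared these alleles, the superovulation of the mothers, collection at the 2-cell stage 46 hours after the last hormone injection, a short exposure to 4-hydroxytamoxifen and culture in KSOM medium, so neither stage is an untreated embryo. There were 24 columns in the 4-cell table and 26 in the 8-cell table, each 1 blastomere. The labels hold more samples, 36 of the 4-cell and 31 of the 8-cell stage. The paper kept its analyses to blastomeres whose lineage could be traced, and whether the columns are those was not tested. No column name pointed to an embryo, a cell or a lineage, so a stage counted as 1 sample and no test was run. Blastomeres of an embryo are not independent, and values are given as the lowest, the median and the highest blastomere. Of the 8-cell columns, 5 are named NA.

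Endogenous retroviruses are remnants of germ line infections, built as an internal part with the viral genes between a pair of long terminal repeats (LTRs), and many copies have since been reduced to a lone LTR. RLTR names stand for rodent LTR elements, and internal parts carry the ending -int. ETn (early transposon) elements lack coding capacity and depend on their coding relatives, the MusD elements, and both are known for transcription in early mouse embryos. RMER names stand for older rodent repeats of medium copy number, and a few of them (RMER1A, RMER1B, RMER1C and RMER30) are not classed as LTR elements by RepeatMasker although the names follow the same pattern. Because only uniquely aligned reads were counted, young copies that are nearly identical to each other are under-counted. The tables hold no coordinates, so a copy that is read as part of a longer gene transcript cannot be told apart from a copy that starts its own.

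The repeat values behaved as FPKM, that is fragments per kilobase of copy scaled to the fragments of the library, and gave back whole fragments. The total behind each value was, in megafragments, 6.88 to 16.9 for the 4-cell blastomeres (median 13.4) and 2.34 to 21.8 for the 8-cell blastomeres (median 17.3). Repeat copies above 0 numbered 22238 to 56875 (median 36838) per 4-cell blastomere and 9582 to 64388 (median 36262) per 8-cell blastomere. A few libraries stood apart. The 8-cell column S57 was the shallowest. More than 35% of the copies above 0 rested on 1 fragment in the 4-cell column S18 and in the 6 8-cell columns S53 to S58, and ORR1 copies took an unusually large part of the repeat fragments in the 4-cell columns S18 and S20. All 8 of the cleavage-stage markers fixed for the check were listed at both stages, no blood marker of 3 was listed, and of 7 cumulus or granulosa markers 3 were listed at the 4-cell stage and 2 at the 8-cell stage, with a median summed level of 0 FPKM at either.

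RLTR, ETn and RMER copies made up a larger share of the repeat copies above 0 in 8-cell than in 4-cell blastomeres, by about the same factor as the middle repeat subfamily. Members above 0 numbered 962, 1600.5 and 2778 per 4-cell blastomere (lowest, median, highest) and 584, 2080.5 and 3860 per 8-cell blastomere. As a percent of all repeat copies above 0 in the same blastomere, the share was 3.01%, 4.52% and 5.59% at the 4-cell stage and 4.80%, 5.67% and 6.84% at the 8-cell stage. The ranges overlapped, yet 16 of the 26 8-cell blastomeres lay above the highest 4-cell blastomere, and all 26 lay above the 4-cell median. The ratio of the median shares, 8-cell over 4-cell, was 1.25. The 2 tables were deposited separately, and a difference between the stages includes any difference between the tables.

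Fragments gave a larger stage ratio than copies. Members held 3.54%, 5.07% and 8.13% of the fragments on repeat copies in 4-cell blastomeres and 6.26%, 8.51% and 10.2% in 8-cell blastomeres, a ratio of medians of 1.68. Much of this lay in 2 groups of names. Without the ETn and MusD set and the RLTR45 pair, the share of fragments was 3.30% and 3.93% in the median blastomere of the stages (ratio 1.19), and the share of copies was 3.34% and 3.73% (ratio 1.12). The internal parts of the members held a median of 1.26% of repeat copies at the 4-cell stage and 2.06% at the 8-cell stage, while their LTRs and other parts stood at 3.14% and 3.54%.

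**Figure D1:**
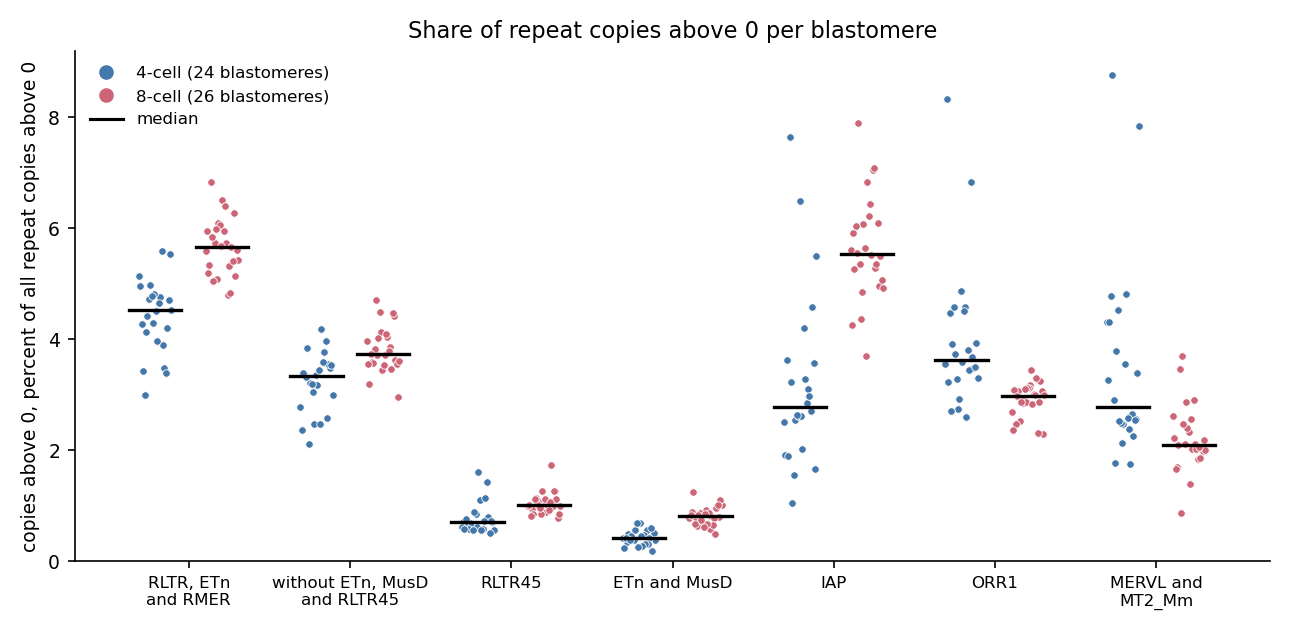
Copies above 0 as a percent of all repeat copies above 0, 1 point per blastomere, for the 4-cell (24) and 8-cell (26) stages, with the median as a bar, for all members, for members without ETn, MusD and RLTR45, for those groups themselves and for 3 other retroviral groups. The member share moves from a median of 4.52% to 5.67%, and the ETn and MusD share from 0.416% to 0.813%.

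To compare subfamilies, each one was given its share of the repeat copies above 0 in every blastomere, and those with a median of at least 5 copies above 0 in the stage where they were higher were compared. This left 90 of the 245 member subfamilies and 443 of all 1449 repeat subfamilies, and the other 155 member subfamilies were too rarely above 0 to be compared. A ratio of median shares of at least 1.5 was called higher and one of at most its inverse lower. Of the 90, 16 were higher at the 8-cell stage, 1 was lower and 73 were neither. Over all 443 repeat subfamilies, 16.3% were higher and 2.71% lower, and the median ratio was 1.23 against 1.24 for the members. The members as a whole sat near the background with all listed copies. Among copies listed at both stages, the setting with the widest gap, 13 of 63 member subfamilies were higher, against 10.6% of 359. Over blastomeres with 30000 to 50000 repeat copies above 0, 17 of 93 were, against 19.1% of 455. At a minimum of 10 copies, 10 of 48 were, against 14.6% of 302. Of the 16, 6 had a 4-cell median under 5 copies and were compared only through the stage where they were higher, so their call says little, and the same held for 21 of the 72 called over all repeats. The ranges of the stages overlapped in every compared subfamily, so 0% of the 443 were separated in either direction.

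The calls are given here by group of names, beside 16.3% higher and 2.71% lower over all 443 repeat subfamilies. Differences between the groups were not tested. Of the ETn and MusD subfamilies, 4 of 5 were called higher, with a median ratio of 1.95. Of the remaining RLTR subfamilies, 10 of 52 were higher and 1 lower (median ratio 1.28), and of the RMER subfamilies 2 of 33 were higher and 0 lower (median ratio 1.14). A 4-cell median under 5 copies stood behind 5 of these RLTR calls, 1 RMER call and 0 of the ETn and MusD calls. Internal parts were called higher in 7 of 16 subfamilies, with 1 lower and a median ratio of 1.47, whereas LTRs and other parts were called higher in 9 of 74 and lower in 0, with a median ratio of 1.21. Such low 4-cell medians stood behind 1 of the 7 and 5 of the 9. Among the other retroviral names, the share of repeat copies above 0 had medians of 2.78% and 5.54% for IAP and of 3.64% and 2.99% for ORR1 copies, and 2 of 8 IAP subfamilies were higher, and 4 of 23 ORR1 subfamilies were lower. IAP elements are young retroviruses of the mouse genome that still move, and ORR1 elements are LTRs of the MaLR group.

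**Figure D2:**
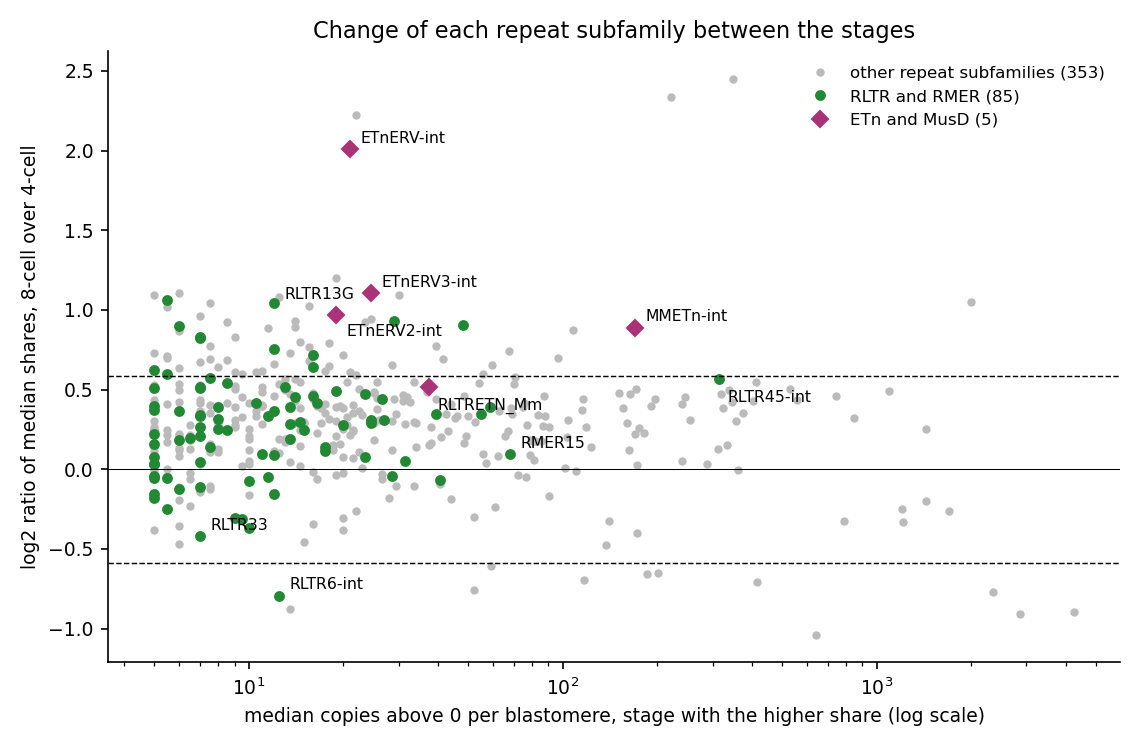
Each point is 1 of the 443 compared repeat subfamilies, with the median number of copies above 0 per blastomere in the stage with the higher share on a log axis and the log2 ratio of median shares, 8-cell over 4-cell, on the other. Dashed lines mark the 1.5-fold threshold, and the 5 ETn and MusD subfamilies (diamonds) all lie above 0, while RLTR and RMER subfamilies lie on both sides of 0 among the other repeats.

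The ETn and MusD set, taken as the names that start with ETn, MMETn or RLTRETN, had the highest stage ratio of the member groups ETn and MusD, RLTR and RMER, close to that of IAP copies (1.99). Copies above 0 numbered 64, 156.5 and 278 per 4-cell blastomere and 79, 289.5 and 435 per 8-cell blastomere. Their share of repeat copies above 0 was 0.186%, 0.416% and 0.688% at the 4-cell stage and 0.497%, 0.813% and 1.24% at the 8-cell stage, a ratio of medians of 1.95. Here 18 of the 26 8-cell blastomeres exceeded the highest 4-cell blastomere, and 18 of the 24 4-cell blastomeres fell below the lowest 8-cell one. The lowest 4-cell shares were in the consecutive columns S21 to S24, at 0.274%, 0.186%, 0.268% and 0.236%. Of these, S22, S23 and S24 were shallow, at 7.83, 6.88 and 9.90 megafragments against a 4-cell median of 13.4, while S21 had 15.6. The part of depth in these shares was not tested. The highest 8-cell shares were in S52 (1.24%), S50 (1.12%), S56 (1.02%) and S49 (1.02%). The shallow column S57 had the fewest of these copies at the 8-cell stage, 79. Within the 6 8-cell columns S53 to S58 the share had a median of 0.881%, and within the other 20 a median of 0.776%, against 0.416% at the 4-cell stage. The 6 columns have consecutive names, and whether they come from 1 embryo was not tested.

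In 8-cell blastomeres the share of the set was lower where more repeat copies were above 0, with a Pearson r of -0.50 and a Spearman rho of -0.69 over 26 blastomeres, and r was -0.63 without the 2 blastomeres with the numbers of copies farthest from the median. In the 24 4-cell blastomeres r was 0.016 and rho 0.10. These points share a denominator, blastomeres of an embryo among them are not independent, and the values are a description. Over the blastomeres with 30000 to 50000 repeat copies above 0, the stage ratio of the set was 1.87 and that of all members 1.25.

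ETnERV-int, an internal part, had the highest ratio among the members, 4.03, and the 4th highest of the 443. It was above 0 at 2, 5 and 13 copies per 4-cell blastomere and at 9, 21 and 58 per 8-cell blastomere, a share of 0.0144% against 0.0578% in the median blastomere. These are small numbers of copies, and the ratio fell to 2.67 when only values above 0.1 FPKM were counted and to 2.34 among copies listed at both stages. ETnERV3-int went from 11.5 to 24.5 median copies (ratio 2.15), and ETnERV2-int from 9.5 to 19 (ratio 1.95).

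MMETn-int, the largest subfamily of the set, was above 0 at 26, 100 and 174 copies per 4-cell blastomere and at 37, 169.5 and 268 per 8-cell blastomere, with a ratio of 1.85. With only values above 1 FPKM counted, that ratio was 2.87. RLTRETN_Mm, the LTR of the same elements, was the exception of the set. Its median was 32 copies at the 4-cell stage and 37.5 at the 8-cell stage, with a ratio of 1.43, and above 1 FPKM the ratio was 1.01.

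**Figure D3:**
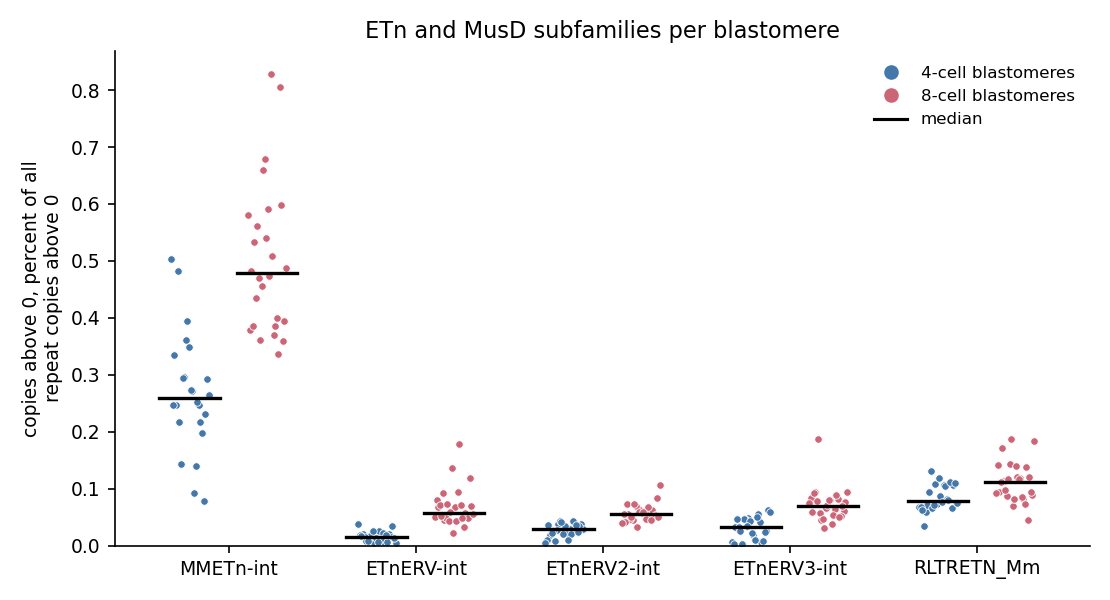
Share of repeat copies above 0 (percent) held by each of the 5 ETn and MusD subfamilies, 1 point per blastomere and stage, with medians as bars. MMETn-int moves from a median of 0.258% to 0.479% and ETnERV-int from 0.0144% to 0.0578%, and the point clouds of the stages overlap in every subfamily.

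By fragments, the set held 0.204%, 0.588% and 1.47% of the repeat fragments in 4-cell blastomeres and 1.01%, 1.66% and 3.43% in 8-cell blastomeres, a ratio of 2.83. A single copy weighed heavily in both. MMETn-int_dup65_chr13, a copy on chromosome 13 with a length of 4411 bases, held 48.1% of the ETn and MusD fragments pooled over 4-cell blastomeres and 25.5% over 8-cell blastomeres. In single blastomeres its part was 16.4% to 80.4% (median 52.7%) at the 4-cell stage and 12.4% to 41.8% (median 25.8%) at the 8-cell stage. The copy was above 0 in all 50 blastomeres, at 24.6, 88.9 and 152 FPKM in 4-cell and at 54.3, 108 and 260 FPKM in 8-cell blastomeres, so its own level overlapped broadly between the stages. Without it, the set's share of fragments was 0.247% at the 4-cell stage and 1.20% at the 8-cell stage, and the ratio was 4.84. Pooled over the blastomeres, 2 copies held 50% of the set's fragments at the 4-cell stage and 7 copies at the 8-cell stage. RLTRETN_Mm held about the same share of fragments at both stages, 0.0146% and 0.0138%.

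The next copies of the set by 8-cell fragments differed at the 4-cell stage, where several, but not all, were low or at 0 in many blastomeres. Because they were picked by their fragments at the 8-cell stage, their values describe the set and support no difference. ETnERV3-int_dup30_chr1 was at 0 in 8 of 24 4-cell blastomeres, with a median of 0.0924 FPKM and a highest value of 21.5, and it was above 0 in 25 of 26 8-cell blastomeres, with a median of 38.0 and a highest value of 84.7 FPKM. ETnERV3-int_dup6_chr6 had medians of 0.808 and 14.2 FPKM, and MMETn-int_dup46_chr14 of 0.0161 and 9.15 FPKM. Both were above 0 in most 8-cell blastomeres, 26 and 24 of 26, against 16 and 13 of 24 at the 4-cell stage. MMETn-int_dup28_chr3 was already above 0 in 22 of 24 4-cell blastomeres, and above 1 FPKM in 15, with medians of 1.76 and 10.3 FPKM. MMETn-int_dup1_chr4 was above 0 in 20 of them, and above 1 FPKM in 19, with medians of 4.45 and 15.4 FPKM.

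The 4-cell blastomeres were uneven in these copies. Of the 5 copies just named, at least 4 were above 1 FPKM in 10 of 24 4-cell blastomeres, and at most 2 were in 13, the columns named S4, S9 and S14 to S24. In 8-cell blastomeres at least 4 were above 1 FPKM in 21 of 26. Because the 5 copies were picked by their 8-cell fragments, these counts support no difference between the stages. The column names carry neither embryo nor lineage, so whether the 13 share either was not tested.

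**Figure D4:**
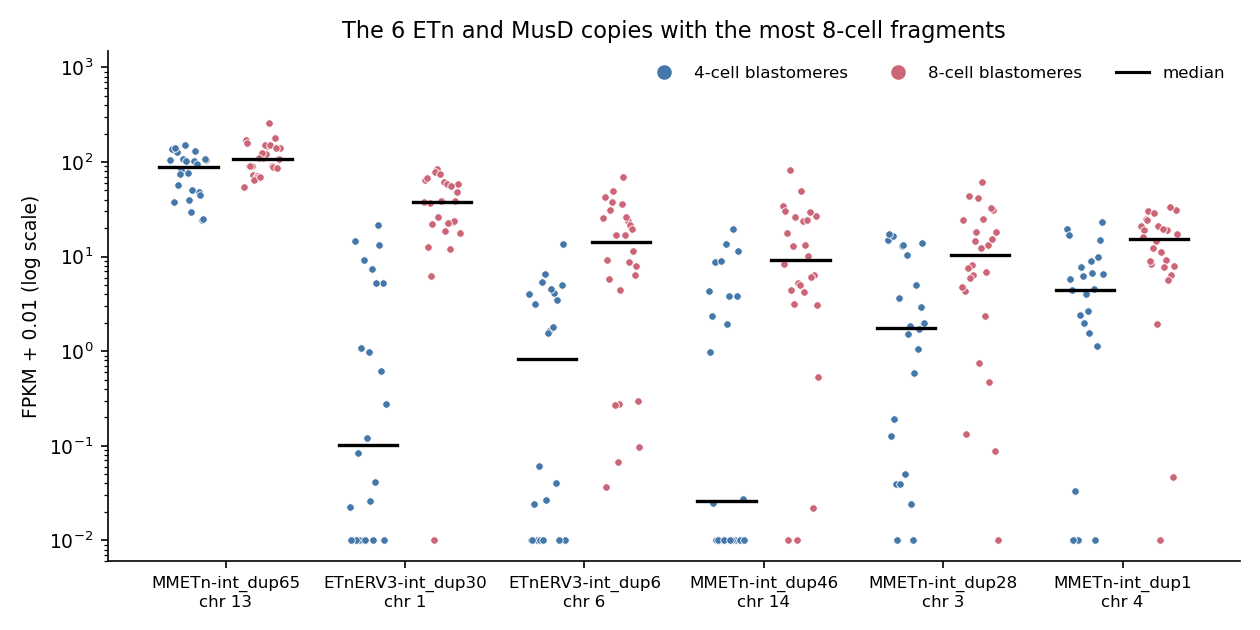
FPKM plus 0.01 on a log axis for the 6 ETn and MusD copies with the most fragments at the 8-cell stage, 1 point per blastomere, with medians as bars. MMETn-int_dup65_chr13 overlaps between the stages (medians of 88.9 and 108 FPKM), while ETnERV3-int_dup30_chr1 lies at or near 0 in many 4-cell blastomeres and has a median of 38.0 FPKM at the 8-cell stage.

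By median copies above 0 per blastomere, the RLTR45 pair was the largest group of names that share a number. RLTR45-int, the internal part, was above 0 at 132, 235.5 and 354 copies per 4-cell blastomere and at 147, 315 and 418 per 8-cell blastomere. Its ratio of shares was 1.48, just short of the threshold, and RLTR12BD_Mm with 1.52 lay just past it. RLTR45, the LTR, went from a median of 42 to 55 copies (ratio 1.27). The pair together stood at 0.509%, 0.707% and 1.61% of repeat copies at the 4-cell stage and at 0.787%, 1.02% and 1.73% at the 8-cell stage. All 26 8-cell blastomeres were above the 4-cell median, but only 1 was above the highest 4-cell blastomere.

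In fragments the pair differed more, with medians of 1.13% and 2.79% of repeat fragments (ratio 2.48). Pooled over blastomeres, the fragments were spread more evenly than those of ETn and MusD, since 26 copies held 50% of them at either stage. The copy with the most, RLTR45-int_dup54_chr3, had medians of 31.3 FPKM at the 4-cell stage and 77.2 FPKM at the 8-cell stage. It held 5.10% and 4.64% of the pair's pooled fragments, and 0.00841% to 19.9% and 1.10% to 14.3% in single blastomeres.

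Of the other RLTR internal parts, 2 were called higher. RLTR1B-int was above 0 at a median of 17 copies in 4-cell and 29 in 8-cell blastomeres (ratio 1.91). RLTR10-int had medians of 30 and 48 copies and a ratio of 1.88, which did not hold for stronger signals. Its ratio was 1.15 above 0.1 FPKM, 1.16 above 1 FPKM and 1.17 with at least 2 fragments.

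The LTRs called higher were scarcer, and RLTR28, RLTR13E, RLTR20C2_MM, RLTR1A2_MM and RLTR12BD_Mm, like RMER17C-int, are among the 6 that passed the minimum of 5 copies at the 8-cell stage only. RLTR13G had medians of 5.5 and 12 copies (ratio 2.06), RLTR28 of 3 and 6 (ratio 1.86) and RLTR13E of 4 and 7 (ratio 1.78). With RLTR13B2 (ratio 1.64), 3 of the 6 compared RLTR13 subfamilies were called higher, against 16.3% of all 443 repeat subfamilies. The remaining RLTR calls were RLTR20C2_MM, RLTR51A_Mm, RLTR1A2_MM and RLTR12BD_Mm, with ratios between 1.52 and 1.77. Counting copies listed at both stages only, RLTR28 fell to 1.06, with 25.5% of its 8-cell copies listed at the 4-cell stage, and RLTR13E to 1.39.

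RMER names had close shares at both stages. The share of repeat copies was 0.710%, 1.30% and 1.67% at the 4-cell stage and 0.955%, 1.42% and 1.74% at the 8-cell stage, a ratio of 1.09, and 2 of 26 8-cell blastomeres lay above the highest 4-cell blastomere. RMER15, the largest RMER subfamily, had medians of 67.5 and 68 copies (ratio 1.07). RMER19B had 40.5 and 38 (ratio 0.952), and RMER6A 35 and 39.5 (ratio 1.27). The RMER calls were RMER17C-int, with medians of 3 and 5.5 copies and a ratio of 2.09 that was 1.29 among copies listed at both stages, and RMER30, with 11 and 16 copies and a ratio of 1.56.

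At the low end, RLTR6-int was the 1 member subfamily called lower. It was above 0 at 2, 12.5 and 30 copies per 4-cell blastomere and at 0, 5.5 and 26 per 8-cell blastomere, a ratio of 0.577, and 0.352 without the columns named NA. The 9 next lowest ratios ran from 0.748 for RLTR33 through 0.775 for RLTR42-int and 0.807 for RMER19A to 0.919 for RMER2, none of them past the threshold. They also held RLTR19 (0.810), RLTR49 (0.842), RMER21A (0.881), RMER19C (0.898) and RLTR27 (0.899). Of the larger LTR subfamilies, RLTR17B_Mm had medians of 41.5 and 58.5 copies (ratio 1.31), and RLTR9E, whose LTRs act as enhancers in mouse embryonic stem cells, had 31.5 at either stage (ratio 1.04).

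Summed over the names that share a number, the groups with the next largest median shares in 8-cell blastomeres, after RLTR45 and the ETn and MusD set, were RLTR10, RLTR13, RMER15 and RLTR17. RLTR10 names had medians of 98.5 copies in 4-cell and 112 in 8-cell blastomeres and a ratio of shares of 1.43. RLTR13 names, with 68 and 111 copies, had 1.57, and RLTR17 names, with 52 and 75, had 1.25. RLTR1 and RLTR20 names had ratios of 1.44 and 1.35. On the low side stood RLTR6 names, whose medians were 23 and 15 copies with a ratio of 0.665, and close to an even ratio stood RMER19 (0.973) and RLTR9 (0.979). The numbered RLTR groups thus ran in both directions within 1 class of names, and their ranges overlapped between the stages.

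Most members were seen in a single blastomere. At the 4-cell stage 59.9% of the listed members were above 0 in exactly 1 of the 24 blastomeres, and at the 8-cell stage 61.2% were in exactly 1 of 26, against 54.8% and 59.8% over all repeat copies. At least 12 blastomeres shared 816 members (5.69%) at the 4-cell stage and 1059 (5.98%) at the 8-cell stage, against 7.21% and 5.13% over all repeats. Every blastomere of the stage had 57 members above 0 at the 4-cell stage and 92 at the 8-cell stage, of which 25 and 48 were RLTR45-int copies. That is 0.398% and 0.519% of the listed members, against 0.499% and 0.379% over all repeat copies.

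ETn and MusD copies were shared more widely than the members as a whole. At least 12 blastomeres held 114 of 763 listed copies (14.9%) at the 4-cell stage and 253 of 1106 (22.9%) at the 8-cell stage. Among them MMETn-int contributed 89 and 194 copies, and the internal parts together had 20.7% and 31.2% of their listed copies in at least 12 blastomeres. RLTR45 copies were shared more widely still, 273 (33.8%) and 364 (41.6%), whereas RMER copies were at 2.95% and 2.32%.

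**Figure D5:**
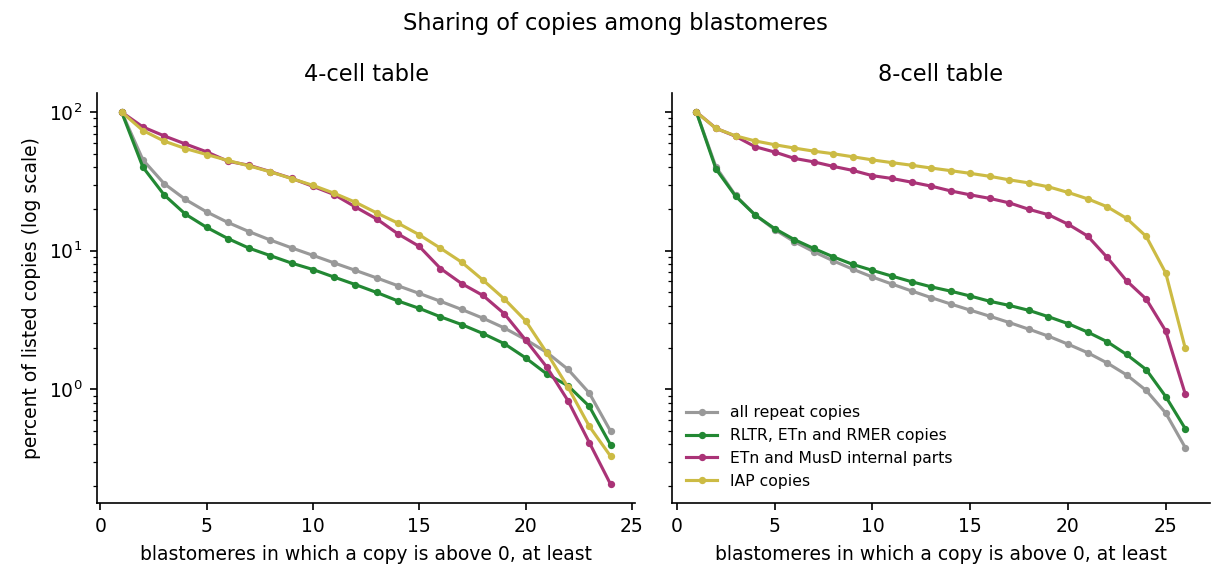
Percent of the listed copies (log axis) that are above 0 in at least the number of blastomeres on the horizontal axis, for all repeat copies, the members, the ETn and MusD internal parts and IAP copies, in the 4-cell and the 8-cell table. At 12 blastomeres or more the ETn and MusD internal parts stand at 20.7% and 31.2%, IAP copies at 22.4% and 41.4%, and the members at 5.69% and 5.98%.

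Between the stages, 6972 members were listed in both tables, which is 48.6% of the 4-cell and 39.3% of the 8-cell members. Over all repeat copies the shares were 52.1% and 44.3%. The ETn and MusD set stood out by its asymmetry, since 606 copies in both tables were 79.4% of the 4-cell but 54.8% of the 8-cell copies. Among the ETn and MusD set, the RLTR45 pair, the RLTR names and the RMER names, RLTR45 copies overlapped most, at 86.9% and 80.2%. RMER copies overlapped least of these, at 41.2% and 34.4%.

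At the level of single copies, 27 of the 25087 members were above 0 in at least 50 percentage points more of the 8-cell than of the 4-cell blastomeres, against 0.0971% of all repeat copies. A difference of that size in favour of the 4-cell stage was found for 14 members, against 0.201% of all repeat copies. Of the 27, 10 were MMETn-int, 6 RLTR45-int, 4 ETnERV-int, 4 ETnERV3-int and 1 ETnERV2-int, so that 19 belonged to ETn and MusD, while none of the 14 did. MMETn-int_dup28_chr17, for example, was above 0 in 5 of 24 4-cell and 21 of 26 8-cell blastomeres. On the other side, RMER6A with 3 copies was the subfamily listed most often, and RMER6A_dup168_chr8 was above 0 in 18 of 24 4-cell and 1 of 26 8-cell blastomeres. The 10 copies with the largest difference in favour of the 8-cell stage, all ETnERV-int, ETnERV3-int, MMETn-int or RLTR45-int, rested on medians of 1 to 3 fragments in 8-cell blastomeres.

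The members above 0 in every blastomere of a stage came from several subfamilies, and RLTR45-int held the most of them. It had 25 of the 57 such members at the 4-cell stage and 48 of the 92 at the 8-cell stage. The copies named here were chosen by their median FPKM, so they do not show how many each subfamily held. In all, 36 of 25087 members were above 0 in all 50 blastomeres, as were 650 of 461206 repeat copies, and the copy with the highest median over both stages was RLTR20C1_MM_dup310_chr2, an LTR copy of 87 bases. It stood at 11.9, 581 and 1619 FPKM in 4-cell and at 49.1, 670 and 1753 FPKM in 8-cell blastomeres. A pair of consecutively numbered RLTR17B_Mm copies on chromosome 5, dup1116 and dup1117, had medians of 465 and 331 FPKM at the 4-cell stage and 478 and 320 FPKM at the 8-cell stage. These copies therefore kept close medians between the stages.

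RMER17D_chr7 had medians of 97.2 and 196 FPKM, RLTR51A_Mm_dup102_chr1 of 296 and 384 FPKM, and RLTR31D_MM_dup98_chr1 of 164 and 107 FPKM, each with overlapping ranges. RLTR1B-int_dup9_chr8 ranged from 0.479 to 114 FPKM in 4-cell and from 0.330 to 216 FPKM in 8-cell blastomeres. RLTR20C1_MM_dup100_chr9 and RLTR45-int_dup5_chr16 completed the list, with medians of 59.6 and 73.0 FPKM and of 60.7 and 61.4 FPKM.

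The members were longer than repeat copies as a whole, though not than every other retroviral group. Over the 4057 members above 0 in at least 5 blastomeres, the median length read from the FPKM steps was 448 bases. It was 175 bases over all 87413 repeat copies, members included, 344 for ORR1 copies and 2687 for IAP copies. MMETn-int copies had a median of 3380 bases and RLTRETN_Mm copies of 321. A longer copy yields more fragments at the same level per length and so passes 0 more easily, and the part of length in these shares was not tested. Single-fragment copies made up a median of 42.6% of the ETn and MusD copies above 0 in 4-cell and 34.2% in 8-cell blastomeres, and 22.9% and 24.5% of all members. With at least 2 fragments required, the ratio of the ETn and MusD share was 2.23 and that of the member share 1.20.

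By chromosome, members were 4.07% to 6.37% of the listed repeat copies on the autosomes and the X chromosome over both stages. On the Y chromosome they were 67 of 411 copies (16.3%) at the 4-cell stage and 89 of 552 (16.1%) at the 8-cell stage. How many copies of each kind the Y chromosome carries was not analysed here, so these shares cannot be set against its repeat content.

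Of 12 genes known for the silencing of retroviruses, all were listed at both stages, 6 with a higher and 6 with a lower median at the 8-cell stage, and the ranges of all 12 overlapped. Trim28, the co-repressor that zinc finger proteins bring to retroviral sequences, ranged from 8.12 to 165 FPKM (median 59.8) in 4-cell and from 25.6 to 280 FPKM (median 121) in 8-cell blastomeres. Setdb1, the histone H3 lysine 9 methyltransferase that Trim28 recruits, had medians of 6.14 and 8.32 FPKM. Zfp809, a zinc finger protein that binds retroviral primer binding sites, had medians of 11.4 and 10.4 FPKM. Chaf1a and Chaf1b, subunits of a histone chaperone, had medians of 8.29 and 5.01 FPKM and of 54.8 and 44.3 FPKM, and Dnmt1, the maintenance DNA methyltransferase, of 7.72 and 2.26 FPKM. On the higher side at the 8-cell stage, Daxx had medians of 1.84 and 10.4 FPKM and Atf7ip of 3.82 and 8.87 FPKM. With 1 sample a stage, none of these differences was tested.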

How the data were processed

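Single blastomeres were sequenced with Smart-seq2 and Nextera XT libraries. Per the submitters' processing notes, the authors aligned reads with STAR 2.5.1b to mm10 and counted them with HTSeq. Unique alignments were counted on RepeatMasker copies of the UCSC annotation. The deposited gene tables hold FPKM values, and the deposited repeat values were read as FPKM because they give whole fragments: of 32530 copies above 0 in at least 5 columns of both tables, 99.8% gave the same length from each table. Each table's stage comes from the study's text and the table's name.

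The members, gene lists and tests were chosen with earlier results of these data known. From the deposited values, copies above 0 were counted per blastomere and subfamily (Python 3.11.15, pandas 2.3.3, numpy 2.4.6, matplotlib 3.10.9). Subfamilies with a median of at least 5 copies were compared at a 1.5-fold threshold. The text names the 10 subfamilies with the highest and the 10 with the lowest ratio, the 10 largest, all ETn and MusD subfamilies and the 10 copies above 0 in the most blastomeres. Because 36 copies tied at all 50 blastomeres, the 10 were those with the highest median FPKM over both stages. The other called subfamilies, and the copies chosen by fragments or by stage difference, were named after their values were seen. Fragments of copies seen in few columns are lower bounds, and reads carry no molecular identifiers. On simulated data all 8 denominators were returned, as were 20 of 20 changed subfamilies, with 4 of 411 unchanged ones called. How often an unchanged subfamily is called in the deposited tables was not tested. The planned comparison of lineages was not run because columns carry neither embryo nor lineage. No repeat sequence or coordinate was used here. Alternatives were thresholds of 0.1 and 1 FPKM, other denominators, minima and folds, subsets of columns and leaving out each blastomere in turn.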

Additional observations from a re-analysis of the deposited data

How the results depend on the processing

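Of the called subfamilies, the 10 with the highest ratios and RLTR6-int were followed in the alternatives, and none changed direction. The other called subfamilies, such as RLTR13B2 and RMER30, were not followed one by one. Uncalled subfamilies near an even ratio, such as RLTR9E (0.974 to 1.13) and RMER19B (0.881 to 1.12), fell on either side of it. Of 122 values that answer a comparison, not counting single blastomeres left out, 91 stayed within a set limit and 31 moved. The limit was the spread over blastomeres for shares and ratios, and a 1.5-fold change for counts of subfamilies. For percents of listed copies it was a binomial interval that takes copies as independent, so it is no spread over blastomeres or embryos. Above 0.1 FPKM, the ETn and MusD share was 0.224% at the 4-cell stage and 0.431% at the 8-cell stage, members in exactly 1 blastomere were 62.8% and 64.1%, and 47.1% of the 4-cell members were listed at the 8-cell stage. Above 1 FPKM these values were 0.121% and 0.298%, 62.1% and 62.3%, and 46.7%, with 40.9% of the 8-cell members listed at the 4-cell stage, a member share of 4.80% at the 8-cell stage and 9 of 59 subfamilies higher (13.7% of all 364). No paired analysis was possible because no column carries an embryo, lineage or replicate number. Without the columns named NA, 63.4% of the 8-cell members were in exactly 1 blastomere, and the overlap was 43.8% and 42.4%. Without simple repeats, low complexity repeats and RNA genes in the denominator the member share was 5.34% and 6.80%. The calls were 4 higher and 0 lower of 90 at 2-fold (3.84% and 0.226% of all 443), 10 higher of 48 at a minimum of 10 copies (14.6% of all 302), and 29 higher and 8 lower of 153 at a minimum of 2 (18.9% and 4.09% of all 709). Counted as fragments, an alternative chosen after seeing the data, the ETn and MusD share was 0.588% and 1.66%, the 8-cell member share 8.51%, and the ratios 1.68 and 2.83. Without the copy with the most fragments the set was at 0.247% and 1.20% (ratio 4.84). With 1 blastomere left out at a time, 58.8% to 60.6% of the 4-cell members were in exactly 1 blastomere, and the overlap was 47.2% to 50.2% of the 4-cell and 37.9% to 40.4% of the 8-cell members. The cause of these shifts was not tested.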
